A study of Mus musculus with 6 samples.

Results

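The small leucine-rich proteoglycans are secreted matrix proteins, and 9 of their genes (Dcn, Bgn, Lum, Fmod, Ogn, Aspn, Prelp, Omd and Podn) are described here together with Pdgfra, the receptor for PDGF-A that marks fibroblasts and oligodendrocyte precursors in the brain. The members were taken as a list of gene symbols, chosen with earlier results of these data known. All 10 were found among the 23329 gene symbols counted. RNA came from brain endothelial cells of 8-week-old C57BL/6 mice that had been isolated with magnetic beads and lysed without culture. One group held 3 libraries from wild-type (WT) mice and the other 3 libraries from littermates labelled GLUT1EC-/-, in which Slc2a1, the gene of the glucose carrier GLUT1, is knocked out in endothelial cells. The labels do not name the Cre driver or the deleted exons, and no other allele or agent is given for either group. Animal numbers are in the 200s for WT 1, WT 2 and GLUT1EC-/- 1 and in the 500s for the others, and the labels do not say what these series stand for.

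Each of these proteoglycans has a core of leucine-rich repeats that binds collagen, and many carry chondroitin, dermatan or keratan sulfate chains. Decorin and biglycan set the thickness of collagen fibrils and hold growth factors such as TGF-beta, and their soluble forms bind receptors of immune and endothelial cells. In the brain, textbook accounts place decorin, lumican and Pdgfra in the fibroblasts of the meninges and of the perivascular space, and biglycan more widely in the vessel wall.

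Libraries held 31874662 to 39424384 counts. Slc2a1 itself did not separate the groups, at 3984, 4479 and 4172 CPM (CPM being counts relative to the scaled library total) for WT against 3735, 5414 and 3893 CPM for the libraries labelled GLUT1EC-/-, so every direction below compares labels. GLUT1EC-/- 2 stood apart, with a scaling factor of 0.884 against 1.0 and above in the other 5 libraries, and WT 3 and GLUT1EC-/- 3 came from males. All 12 endothelial markers were detected and 0 passed (edgeR, 2 at an unadjusted p under 0.05, a share near the 14.5% of all tested genes, and 0 by DESeq2), with summed levels of 16976 to 18349 CPM in WT and 16578 to 19468 CPM in GLUT1EC-/-.

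Many of the members lie next to each other in the genome (GRCm38). Dcn (chromosome 10, 97479609 to 97518143, plus strand, 8 exons in its longest coding transcript) is followed by Lum (97565128 to 97572703, 3 exons) after a gap of 46984 bases, and Kera and Epyc come next. On chromosome 13, Ecm2, Aspn (49544443 to 49567565, 8 exons), Omd (49582462 to 49592822, 4 exons) and Ogn (49608046 to 49624501, 7 exons) follow each other on the plus strand within 120 kb. Prelp (chromosome 1, 133910304 to 133921414, minus strand, 3 exons) and Fmod (134037254 to 134048277, plus strand, 3 exons) are 115839 bases apart, with no annotated coding gene between them. Bgn (chromosome X, 73483602 to 73495933, 8 exons), Podn (chromosome 4, 108014791 to 108096445, 13 exons) and Pdgfra (chromosome 5, 75152292 to 75198215, 23 exons) have no other member beside them. Of the 10 members, 7 share no exon position with another annotated gene. Aspn overlaps exons of Cenpp on the other strand, Prelp those of an antisense RNA, and Pdgfra those of a microRNA on its own strand and of noncoding transcripts on the other. The strand setting of the counting is not given in the sources used here, so reads from these pairs cannot be told apart, though Cenpp itself reached at most 0.627 CPM in any library.

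The RefSeq promoter table (GRCm38.p6) held 8 of the 10 members, all but Dcn and Lum. The 150 bases before the start site are printed for Bgn, the most abundant member. Those of Podn and Pdgfra, whose GLUT1EC-/- values all lay above those of WT, are printed as well. So are the stretches of the 3 members on chromosome 13, whose fitted changes were all below 0. They were searched on both strands for the TATA motif spelled TATAAA. The GC box was searched as GGGCGG. The CCAAT box is spelled by its name. The AP-1 site was searched as TGANTCA. The SMAD element was searched as CAGACA. Capitals mark each match. Podn has 2 start sites in the table and the first is shown. Its printed stretch lies inside the gene span given above, away from the upstream end of that span at 108096445.
Bgn (chrX:73483451-73483600, plus strand): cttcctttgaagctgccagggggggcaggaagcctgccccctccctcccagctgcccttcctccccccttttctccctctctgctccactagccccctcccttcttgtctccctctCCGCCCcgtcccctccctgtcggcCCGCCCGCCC
Podn (chr4:108031955-108032104, minus strand): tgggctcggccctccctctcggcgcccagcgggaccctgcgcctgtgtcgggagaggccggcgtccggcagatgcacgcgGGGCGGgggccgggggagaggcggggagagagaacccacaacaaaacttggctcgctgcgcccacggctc
Pdgfra (chr5:75152101-75152250, plus strand): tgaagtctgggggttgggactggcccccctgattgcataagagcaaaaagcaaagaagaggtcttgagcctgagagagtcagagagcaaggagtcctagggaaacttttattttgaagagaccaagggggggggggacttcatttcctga
Aspn (chr13:49544293-49544442, plus strand): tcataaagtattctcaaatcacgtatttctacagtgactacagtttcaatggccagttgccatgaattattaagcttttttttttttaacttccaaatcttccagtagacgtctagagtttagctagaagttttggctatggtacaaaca
Omd (chr13:49582312-49582461, plus strand): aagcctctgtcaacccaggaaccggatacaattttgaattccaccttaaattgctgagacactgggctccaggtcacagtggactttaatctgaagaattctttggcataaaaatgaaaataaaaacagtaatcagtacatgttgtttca
Ogn (chr13:49607865-49608014, plus strand): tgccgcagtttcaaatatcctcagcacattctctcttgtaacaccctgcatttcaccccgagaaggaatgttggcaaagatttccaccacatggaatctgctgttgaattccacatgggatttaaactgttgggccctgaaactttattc
The Bgn stretch held 3 matches to the GC box, 34, 10 and 6 bases before the start, the last 2 of which overlap, and that of Podn held 1, at 70 bases. Matches to the GC box are found in 28.6% of the 32851 promoters of this length, and those to the TATA box, CCAAT box, AP-1 site and SMAD element in 7.57%, 24.5%, 4.24% and 10.3%. None of these 5 motifs was matched in the stretches of Pdgfra, Aspn, Omd and Ogn. Among stretches not printed, that of Ecm2, also on chromosome 13, held 1 match to the GC box, 87 bases before the start. That of Prelp held 1 to the CCAAT box, at 15 bases, and that of Fmod held none. G and C made up 70.0% of the Bgn and 74.7% of the Podn stretch and 33.3%, 38.0% and 44.0% of those of Aspn, Omd and Ogn, where the median of all promoters was 54.0%. For Ecm2, Prelp and Fmod the share was 42.7%, 56.0% and 49.3%. A match describes these letters and is not a bound site.

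The comparison asked how the expression of these genes differs between WT and GLUT1EC-/- cells. Dcn rose about 4-fold, and it was the 1 of 10 members to pass the test over all genes (quasi-likelihood F test of edgeR, p under 0.05 after Benjamini-Hochberg adjustment). Among the 14838 genes tested, 0.863% were called higher and 0.445% lower. No member was called lower by edgeR or limma-voom, and DESeq2 called 1, Ogn. DESeq2 made more calls over all genes, 3.38% higher and 2.54% lower, as did edgeR without GLUT1EC-/- 2, with 3.52% higher and 2.21% lower. At an unadjusted p under 0.05 in edgeR there were 5 members, against 14.5% of all tested genes. Groups did not overlap for 4 members, with every GLUT1EC-/- library above every WT library for Dcn, Podn and Pdgfra and below for Ogn. Of all tested genes, 11.7% had all GLUT1EC-/- libraries above and 11.2% all below. The fitted log2 fold change was above 0 for 6 members and below 0 for 4, with a median of 0.29, against 0.01 over all tested genes. This median rested partly on GLUT1EC-/- 3 and was 0.03 without it. All 10 members passed the filter on low counts. In bulk RNA, fewer or more cells of a type and less or more RNA per cell cannot be told apart.

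**Figure D1:**
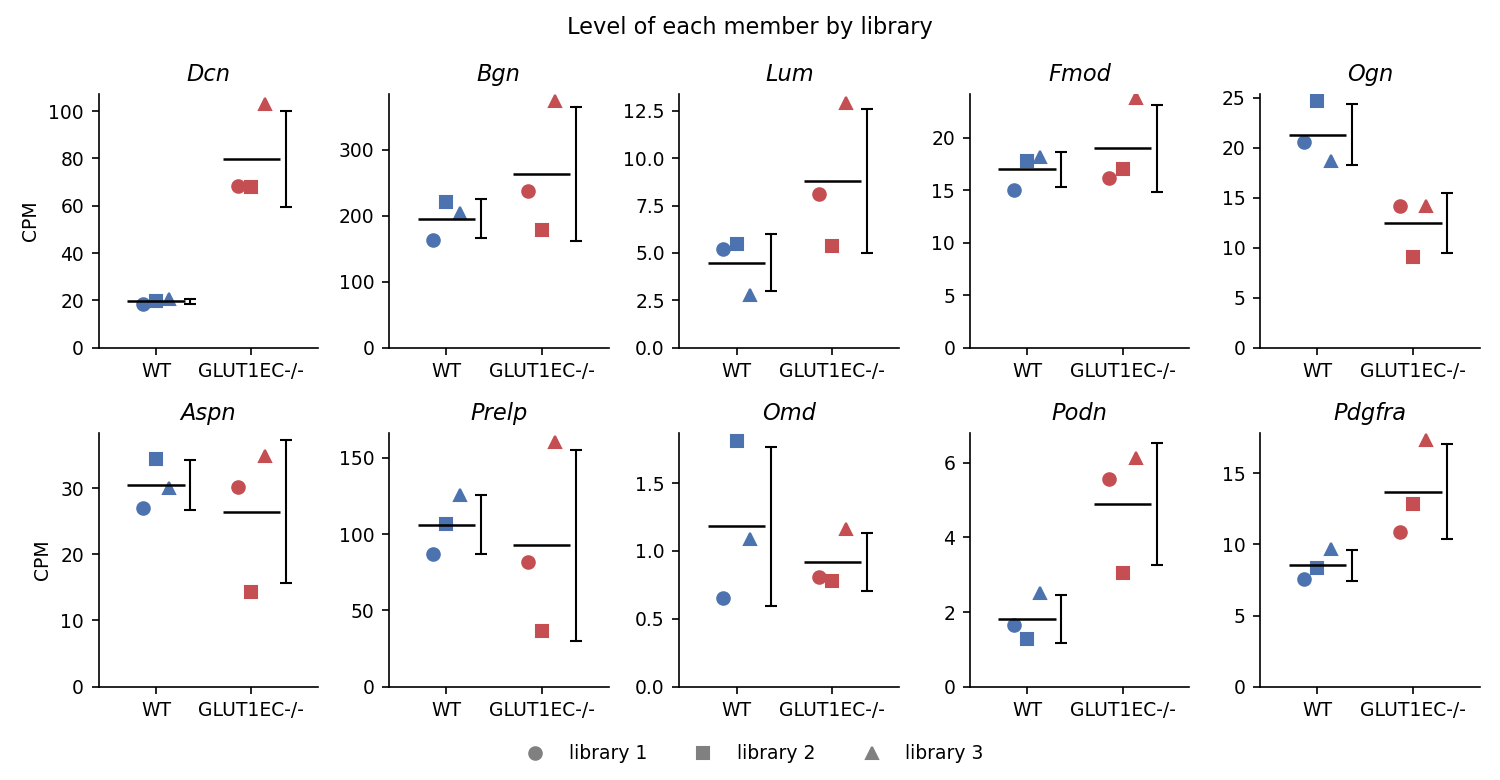
CPM of each of the 10 members (y axis from 0, a separate scale per panel) in the 3 WT and 3 GLUT1EC-/- libraries; symbols mark libraries 1 to 3, the horizontal line the group mean and the bar at its right ± 1 SD. Dcn is the panel in which the 3 GLUT1EC-/- libraries, at 68.0 to 103 CPM, lie farthest above WT, at 18.3 to 20.6 CPM.

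Decorin, encoded by Dcn, is the founding member of the family and carries a single chondroitin or dermatan sulfate chain. Its level was 18.3, 19.7 and 20.6 CPM across the WT libraries, against 68.2, 68.0 and 103 CPM across GLUT1EC-/-. All WT values were close together, and the lowest GLUT1EC-/- value was over 3 times the highest WT value. The mean went from 19.5 ± 1.2 to 79.8 ± 20.3 CPM (SD, n = 3 each), a log2 change of 2.03 ± 0.19 (SE, adjusted p = 0.00997 by edgeR), or 4.09-fold (95% interval 3.01 to 5.54). Within the 200s the log2 difference was 1.82 and within the 500s 2.0. Across the alternatives the fitted value was 1.80 to 2.13. With any 1 of the WT libraries left out, Dcn did not pass (edgeR adjusted p = 0.115, 0.0674 and 0.0695 without WT 1, 2 and 3). Those fits called 0, 1 and 5 of all tested genes, against 194 with all libraries. The fitted change of Dcn in them was 1.98, 2.03 and 2.07.

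Biglycan, encoded by Bgn and the closest relative of decorin, carries 2 glycosaminoglycan chains. Bgn read 162, 220 and 204 CPM across the WT libraries, against 237, 178 and 374 CPM across GLUT1EC-/-. GLUT1EC-/- 2 lay within the WT range and GLUT1EC-/- 3 well above it, so the groups overlapped. The log2 change came to 0.43 ± 0.26 (SE, adjusted p = 0.505 by edgeR), or 1.35-fold (95% interval 0.884 to 2.05), and it was 0.08 without GLUT1EC-/- 3. Asporin, the product of Aspn, belongs to the same class but lacks glycosaminoglycan chains. Aspn read 26.9, 34.4 and 30.01 CPM across the WT libraries, against 30.2, 14.3 and 34.9 CPM across GLUT1EC-/-. GLUT1EC-/- 2 lay far below the other 5 libraries, which overlapped, and the log2 change of -0.20 ± 0.30 (SE, adjusted p = 0.781 by edgeR) became 0.09 without that library.

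Lumican and fibromodulin are keratan sulfate proteoglycans that share a binding site on collagen I. Lum read 5.23, 5.46 and 2.78 CPM across the WT libraries, against 8.09, 5.38 and 12.9 CPM across GLUT1EC-/-. One GLUT1EC-/- value was just under the highest WT value, and GLUT1EC-/- 3 was the highest of all. Its log2 change came to 0.97 ± 0.38 (SE, adjusted p = 0.282 by edgeR), with 0.56 within the 200s, 1.44 within the 500s and 0.59 without GLUT1EC-/- 3. Fmod read 15.1, 17.8 and 18.1 CPM across the WT libraries, against 16.2, 17.1 and 23.8 CPM across GLUT1EC-/-, a log2 change of 0.16 ± 0.19 (SE, adjusted p = 0.73 by edgeR). The 95% interval of its fold, 0.828 to 1.51, excludes a change as large as that of Dcn.

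Prelp encodes a proteoglycan whose basic N-terminus binds heparan sulfate and links basement membranes to connective tissue. It read 86.8, 107 and 125 CPM across the WT libraries, against 81.5, 36.3 and 160 CPM across GLUT1EC-/-. The GLUT1EC-/- libraries held both the lowest and the highest value of the 6, with an SD of 62.6 CPM against 19.2 CPM in WT. The log2 change came to -0.20 ± 0.44 (SE, adjusted p = 0.864 by edgeR), with -0.85 when GLUT1EC-/- 3 was left out and 0.18 when GLUT1EC-/- 2 was. GLUT1EC-/- 2 was also lowest in Kl, a gene of the choroid plexus epithelium, at 39.4 CPM against 106 to 160 CPM in the other 5 libraries. The 8 choroid plexus markers summed to 2933 CPM in GLUT1EC-/- 2 and to 4890 to 5464 CPM in the remaining GLUT1EC-/- libraries. Among WT libraries the sum was 3656 to 6451 CPM. Most of each sum was Ttr, at 2778 CPM in GLUT1EC-/- 2 and 3361 to 6057 CPM in WT. Of the 8 markers, 0 passed (edgeR, 0 at an unadjusted p under 0.05, and 0 by DESeq2), and their part in the Prelp values was not tested.

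Osteoglycin, also called mimecan and encoded by Ogn, was first known from bone and is made by fibroblasts of many tissues. Ogn read 20.6, 24.7 and 18.7 CPM across the WT libraries, against 14.2, 9.05 and 14.2 CPM across GLUT1EC-/-. All 3 GLUT1EC-/- values lay below the lowest WT value, opposite to Dcn. The log2 change came to -0.77 ± 0.22 (SE, adjusted p = 0.15 by edgeR), or 0.586-fold (95% interval 0.416 to 0.825), so the gene did not pass over all genes. It was -0.65 within the 200s and -0.70 within the 500s, and it stayed between -0.87 and -0.59 across the alternatives. DESeq2 (adjusted p = 0.0266) and the edgeR fit without GLUT1EC-/- 2 (adjusted p = 0.0462) did call Ogn lower.

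Osteomodulin, from Omd, is a keratan sulfate member best known from bone. Omd read 0.650, 1.81 and 1.08 CPM across the WT libraries, against 0.809, 0.777 and 1.16 CPM across GLUT1EC-/-, which is 21 to 62 counts per library. WT alone spanned the whole range, and at this depth the log2 change of -0.36 ± 0.45 (SE, adjusted p = 0.739 by edgeR) could not be told from 0. Podocan, from Podn, was described in kidney and in the vessel wall. Podn read 1.64, 1.29 and 2.51 CPM across the WT libraries, against 5.56, 3.05 and 6.12 CPM across GLUT1EC-/-, or 44 to 102 and 102 to 226 counts. Its groups did not overlap, with a log2 change of 1.43 ± 0.37 (SE, adjusted p = 0.124 by edgeR), or 2.70-fold (95% interval 1.503 to 4.84). Within the 200s the difference was 1.63 and within the 500s 0.69. DESeq2 (adjusted p = 0.00571) and edgeR without GLUT1EC-/- 2 (adjusted p = 0.01) called Podn higher.

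Pdgfra read 7.55, 8.36 and 9.68 CPM across the WT libraries, against 10.9, 12.9 and 17.4 CPM across GLUT1EC-/-. Every GLUT1EC-/- library was above every WT library, but the lowest was close to the highest WT value. The log2 change came to 0.68 ± 0.22 (SE, adjusted p = 0.198 by edgeR), or 1.61-fold (95% interval 1.14 to 2.27), which lies wholly below that of Dcn. It was 0.43 within the 200s and 0.60 within the 500s. Without GLUT1EC-/- 3 it was 0.48.

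**Figure D2:**
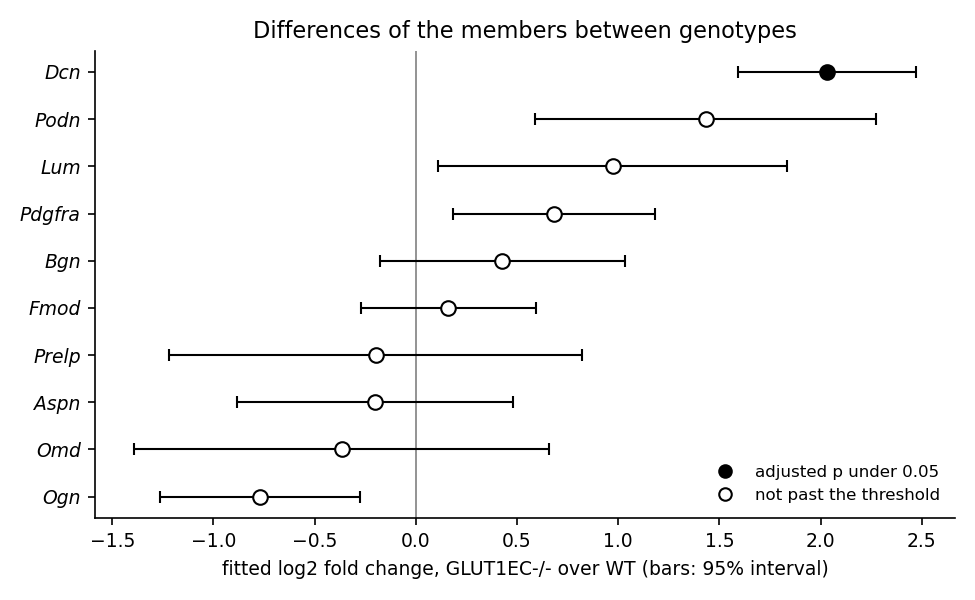
Fitted log2 fold change (x axis, GLUT1EC-/- over WT, n = 3 each) of the 10 members with 95% intervals; the filled point passed the threshold over all genes. Dcn is the filled point at 2.03, and the intervals of Dcn, Podn, Lum, Pdgfra and Ogn do not include 0, before any adjustment for the number of genes.

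The members were also set against Dcn, library by library. Within each library, the log2 ratio of each of the other 9 members to Dcn was lower in all 3 GLUT1EC-/- libraries than in all 3 WT libraries. The difference was nearest to 0 for Podn, at -0.77, and farthest for Ogn, at -2.74. Dcn had the highest fold change of the 10 members, so the direction of these ratios is set by the choice of Dcn as the reference, and they are given as a description of how far each member lay from Dcn.

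By chromosome, Dcn and Lum were the members on chromosome 10, with log2 fold changes of 2.03 and 0.97. Kera, the corneal proteoglycan keratocan, had 0 counts in all libraries, and Epyc was too low to test. On chromosome 13 the fitted change was below 0 for all 4 neighbours, -1.28 for Ecm2, -0.20 for Aspn, -0.36 for Omd and -0.77 for Ogn, and none passed in edgeR. For Aspn and Omd the sign turned when 1 library was left out, to 0.09 without GLUT1EC-/- 2 and to 0.07 without WT 2. Ecm2, a leucine-rich repeat protein of the extracellular matrix, read 94.3, 100.2 and 82.8 CPM across the WT libraries, against 44.4, 14.3 and 55.8 CPM across GLUT1EC-/-. Its groups did not overlap, and its SE was 0.41 (edgeR adjusted p = 0.204). GLUT1EC-/- 2 lay far below the other libraries, as it did for Aspn and Prelp, and DESeq2 called both Ecm2 (adjusted p = 0.0279) and Ogn lower. On chromosome 1, the groups of both Fmod and Prelp overlapped.

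**Figure D3:**
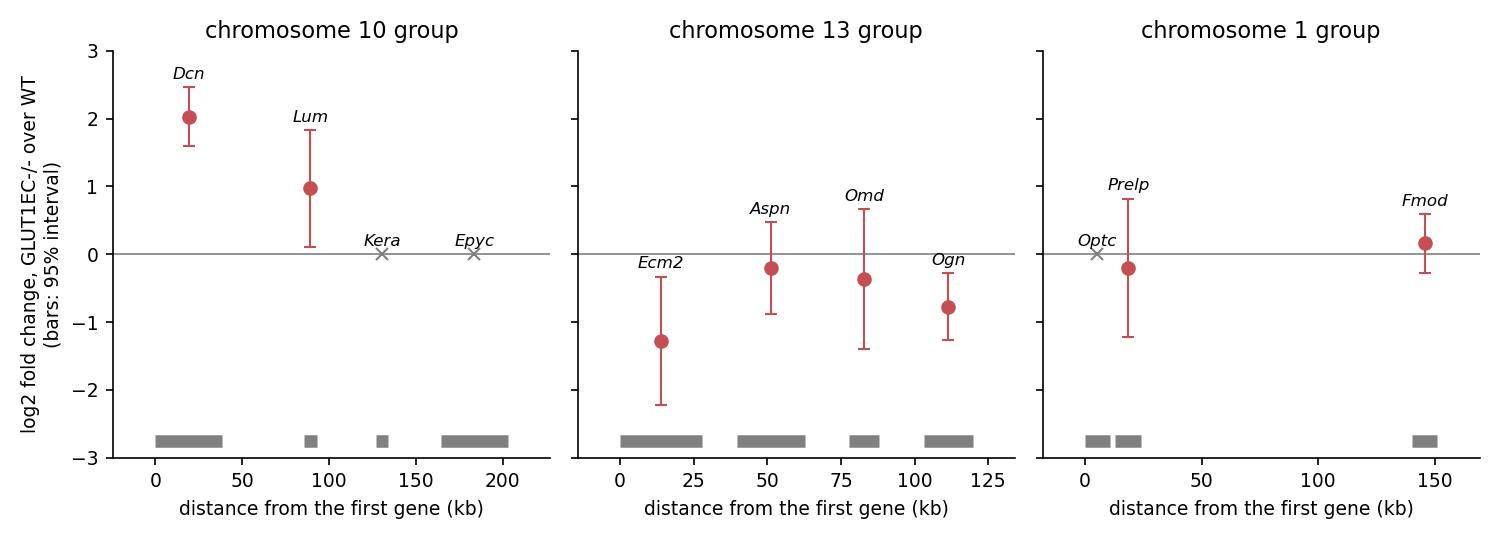
Fitted log2 fold change with 95% intervals (y axis) against distance along the chromosome in kb from the first gene of each group (x axis); grey bars show the extent of each gene and grey crosses genes too low to test, which have no value. Dcn and Lum lie above 0 and Ecm2, Aspn, Omd and Ogn below 0, with intervals of Aspn and Omd that include 0.

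Levels of different genes were compared as CPM per kb of the longest coding transcript. In WT the order was Bgn (80.8 ± 12.3 CPM per kb), Prelp (29.4 ± 5.3), Aspn (13.1 ± 1.6), Dcn (11.1 ± 0.7), Ogn (8.31 ± 1.19), Fmod (5.44 ± 0.54), Lum (1.83 ± 0.61), Pdgfra (1.25 ± 0.16), Podn (0.572 ± 0.199) and Omd (0.525 ± 0.261). Among neighbours in this order, the ranges of Aspn and Dcn, of Lum and Pdgfra and of Podn and Omd overlapped, and the others did not. In GLUT1EC-/- Bgn stayed first (109 ± 42 CPM per kb), and Dcn was next (45.4 ± 11.5), ahead of Prelp (25.6 ± 17.3), whose range overlapped that of Dcn. From Prelp down to Podn each neighbouring pair overlapped. Of the summed level per kb of the 9 proteoglycans, Dcn made up 7.41% ± 0.64 in WT and 22.7% ± 4.1 in GLUT1EC-/- (SD, n = 3 each). The share of Bgn was 53.4% ± 1.5 and 52.3% ± 0.4, and that of Prelp 19.4% ± 2.1 and 11.4% ± 4.0. Ogn made up 5.54% ± 0.86 and 2.44% ± 0.53. Shares add to a fixed total, so a higher share of Dcn lowers the rest.

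**Figure D4:**
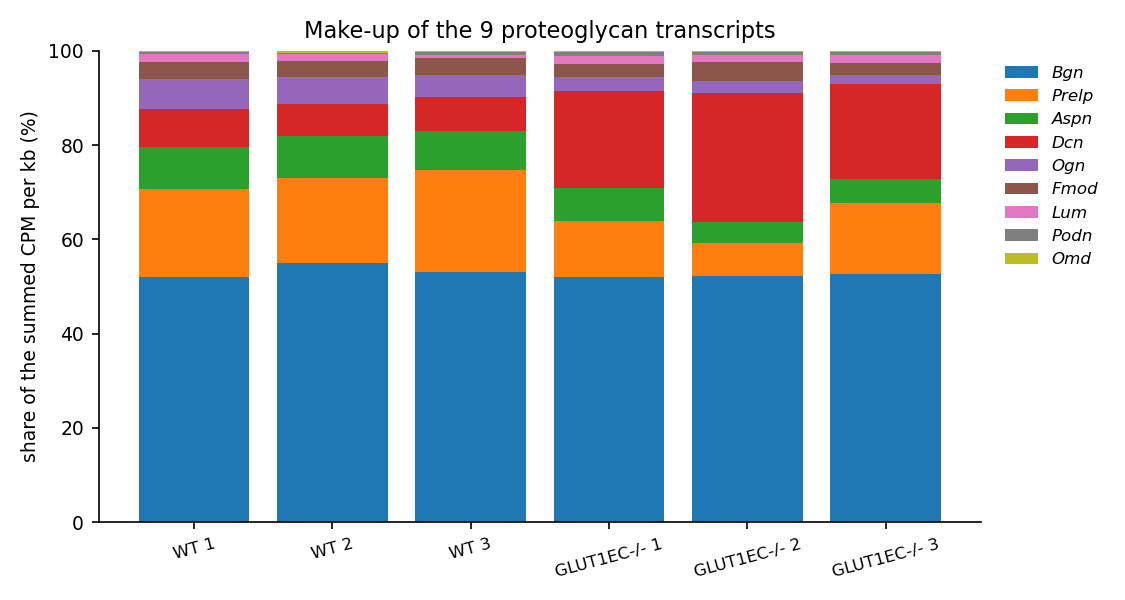
Share of each of the 9 proteoglycans (y axis, percent of their summed CPM per kb) in each of the 6 libraries. The Dcn segment takes 6.78% to 8.07% in WT and 20.0% to 27.5% in GLUT1EC-/-, and the Bgn segment 52.0% to 55.1% in all 6.

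Other genes of the pathway were taken from lists of ligands, partners and enzymes, and their counts at an unadjusted p under 0.05 are to be read against the 14.5% of all tested genes. Among 6 genes of PDGF ligands and receptors, 0 passed in either direction (edgeR, 2 at an unadjusted p under 0.05, and 1 by DESeq2, the ligand gene Pdgfc), with a median log2 fold change of 0.14. Pdgfb, the endothelial ligand that recruits pericytes, had a log2 change of -0.35 ± 0.22 (SE), and Pdgfrb, its receptor on mural cells, one of 0.40 ± 0.21 (SE). Of the other small leucine-rich proteoglycans, 4 of 8 could be tested and 0 passed (edgeR, 1 at an unadjusted p under 0.05, and 1 by DESeq2), with a median of -0.14. The best measured besides Ecm2 was Tsku, at 1.79 ± 0.36 CPM in WT and 2.34 ± 0.59 CPM in GLUT1EC-/-.

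Of 10 collagens that these proteoglycans bind, 1 rose and 1 fell. Both called genes encode collagens of fibril surfaces. Col12a1 read 2.10, 2.57 and 2.19 CPM across the WT libraries, against 15.9, 17.7 and 32.0 CPM across GLUT1EC-/- (log2 change 3.25 ± 0.30 SE, adjusted p = 0.00997 by edgeR). Col14a1, a known partner of decorin, read 66.4, 48.1 and 37.9 CPM across the WT libraries, against 5.195, 3.47 and 8.47 CPM across GLUT1EC-/- (log2 change -3.15 ± 0.35 SE, adjusted p = 0.0148 by edgeR). The groups of both were far apart. At an unadjusted p under 0.05 in edgeR there were 7 of the 10 collagens. The median of the 10 was 0.69, with 9 above 0, and DESeq2 called 4 higher and 1 lower. With any 1 WT library left out, neither passed (edgeR adjusted p = 0.0674 to 0.115), and without GLUT1EC-/- 1 Col14a1 did not (edgeR adjusted p = 0.0574).

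For the sugar chains, 0 of 20 tested genes of chondroitin and dermatan sulfate synthesis passed (edgeR, 3 at an unadjusted p under 0.05, and 1 by DESeq2), with a median log2 fold change of -0.03. Chst11, a chondroitin 4-sulfotransferase, was at 142 ± 18 CPM in WT and 132 ± 8 CPM in GLUT1EC-/-, and Fam20b, the xylose kinase of the linker, at 70.0 ± 5.4 and 63.8 ± 7.8 CPM. Among 6 tested genes of keratan sulfate synthesis, DESeq2 called 2 higher (Chst1 and Chst2) and limma-voom 0. By edgeR 1 rose and 0 fell (2 at an unadjusted p under 0.05), with a median of 0.41. That gene was Chst1, a sulfotransferase acting on galactose of keratan sulfate, which read 2.72, 2.34 and 2.86 CPM across the WT libraries, against 7.88, 15.2 and 6.20 CPM across GLUT1EC-/- (log2 change 1.89 ± 0.35 SE, adjusted p = 0.0487 by edgeR). It was near the threshold and did not pass with limma-voom (adjusted p = 0.0884) with library size alone (edgeR adjusted p = 0.0531), with a filter of 1 CPM in 3 libraries (0.0505) or with sex as a term (0.0895), nor with any 1 WT library (edgeR adjusted p = 0.184 to 0.262) or GLUT1EC-/- 1 (edgeR adjusted p = 0.0988) left out.

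TGF-beta is held in the matrix by decorin, biglycan and the latent binding proteins. Of 10 genes of its ligands, receptors and binding proteins, 0 rose and 2 fell (edgeR, 2 at an unadjusted p under 0.05), with a median of 0.08. Ltbp4, a latent TGF-beta binding protein also needed for elastic fibres, read 3331, 3246 and 2529 CPM across the WT libraries, against 1354, 1391 and 1688 CPM across GLUT1EC-/- (log2 change -1.04 ± 0.17 SE, adjusted p = 0.0316 by edgeR). The ligand gene Tgfb2 read 193, 208 and 168 CPM across the WT libraries, against 107, 122 and 97.2 CPM across GLUT1EC-/- (log2 change -0.80 ± 0.15 SE, adjusted p = 0.046 by edgeR). Neither gene's groups overlapped. With any 1 WT library or GLUT1EC-/- 1 left out, neither passed (edgeR adjusted p = 0.0775 to 0.262), nor did Tgfb2 without GLUT1EC-/- 3 (edgeR adjusted p = 0.0667) or Ltbp4 with sex as a term (edgeR adjusted p = 0.0674). Among 5 tested propeptide proteinases and enhancers, 0 passed (edgeR, 2 at an unadjusted p under 0.05, and 0 by DESeq2), with a median of 0.14. The same held for the 8 genes of receptors for soluble decorin and biglycan, with 0 passing, 2 at an unadjusted p under 0.05, 1 by DESeq2 (Tlr4) and a median of 0.31. Pcolce, which speeds the cleavage of procollagen, had a log2 change of 0.68 ± 0.24 (SE), and Furin, which cleaves many proproteins, one of 0.67 ± 0.24 (SE). Without GLUT1EC-/- 2, edgeR did call Pcolce (adjusted p = 0.00875, log2 fold change 0.90). The receptor genes Kdr and Igf1r had log2 fold changes of -0.05 (SE 0.14) and 0.08 (SE 0.18). With the animal number series as a term, 14 genes in all passed against 194 without it, among them Dcn (edgeR adjusted p = 0.0444) and none of the 5 pathway genes named here as rising or falling. Their fitted log2 changes in that fit were 3.12 for Col12a1, -3.06 for Col14a1, 1.77 for Chst1, -0.998 for Ltbp4 and -0.76 for Tgfb2.

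Markers of other cell types were read beside the members, and their counts at an unadjusted p under 0.05 compare with 14.5% of all tested genes. Of 13 tested fibroblast markers outside the members, 0 passed (edgeR, 9 at an unadjusted p under 0.05, and 5 higher by DESeq2), 10 had a fitted change above 0 and the median was 0.73. Below 0 were 3, Mfap4 (log2 change -0.95), Tcf21 (-0.70) and Clec3b (-0.34). Mfap4 is among the 9, and all its GLUT1EC-/- values lay below those of WT. Col1a1, Col1a2 and Col3a1 are also in the list of collagens and Pcolce in that of propeptide proteinases and enhancers, so the counts of these lists are not separate. The summed level of all the fibroblast markers was 153 to 195 CPM in WT and 214 to 460 CPM in GLUT1EC-/-. GLUT1EC-/- 3 was the highest, as it was for every member but Ogn and Omd. Serping1, the C1 inhibitor, had a log2 change of 0.81 ± 0.16 (SE, adjusted p = 0.0598 by edgeR), and Col1a2 one of 0.73 ± 0.29 (SE, adjusted p = 0.291 by edgeR). DESeq2 called Serping1 higher (adjusted p = 0.000947) and did not call Col1a2 (adjusted p = 0.156). The part of the fibroblast markers in the rise of Dcn was not tested. Of 8 arachnoid and meningeal markers, 0 passed (edgeR, 2 at an unadjusted p under 0.05, and 1 higher and 1 lower by DESeq2). Fitted changes were above 0 for 5 and below 0 for 3, with a median of 0.10. Aldh1a2, the gene called higher by DESeq2, read 5.88, 7.13 and 8.01 CPM across the WT libraries, against 13.6, 10.1 and 15.6 CPM across GLUT1EC-/-. Its log2 change was 0.90 ± 0.22 (SE, adjusted p = 0.105 by edgeR). Dpp4, a surface peptidase, had a fitted change of -1.38 on the log2 scale (adjusted p = 0.057 by edgeR). It was called lower by DESeq2 (adjusted p = 0.000141) and by edgeR with no filter on low counts (adjusted p = 0.038). Tbx18, a transcription factor of meningeal and mural cells, was at 19.2 ± 1.7 CPM in WT and 20.9 ± 3.2 CPM in GLUT1EC-/-.

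**Figure D5:**
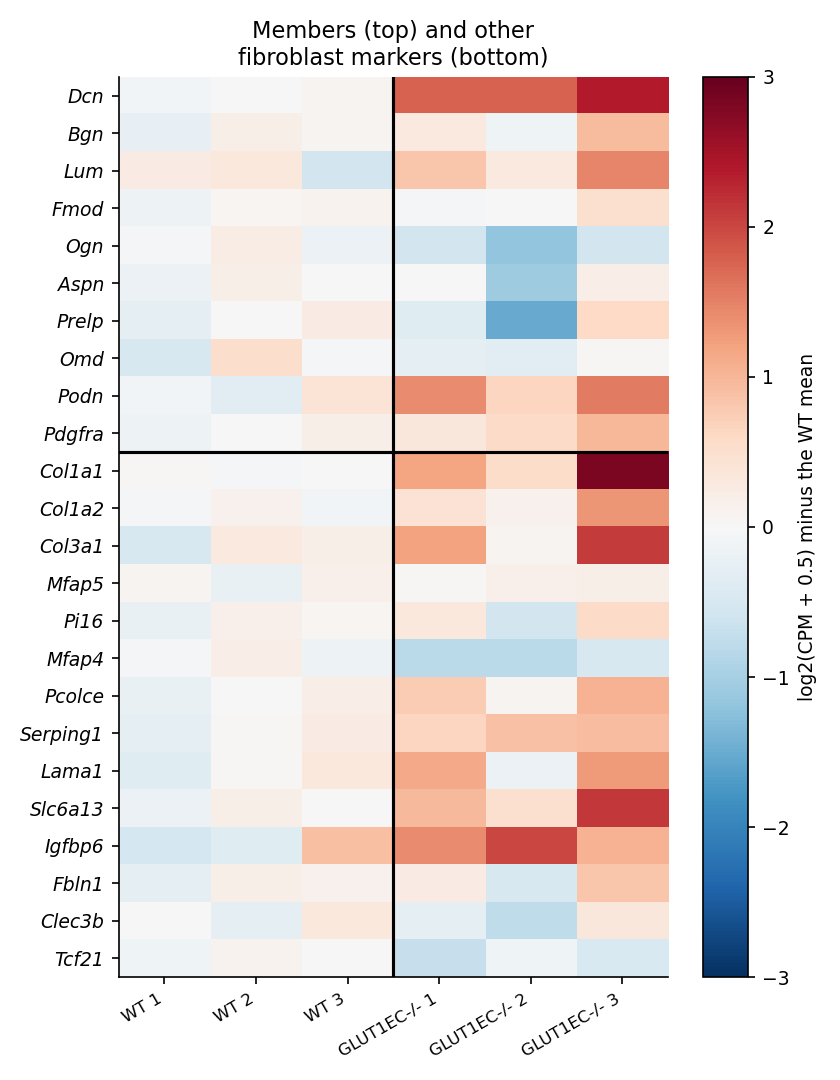
Difference of log2(CPM + 0.5) from the WT mean (colour, red above and blue below) for the 10 members (above the line) and the 14 other fibroblast markers (below it) in each library. The GLUT1EC-/- 3 column is red for Dcn, Lum, Bgn, Podn, Pdgfra, Col1a1 and Col3a1, and Ogn and Mfap4 are blue in all 3 GLUT1EC-/- columns.

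Pdgfra also marks oligodendrocyte precursors, and 10 other markers of these cells were read. Of these, 6 were too low to test, 0 of 4 passed (edgeR, 1 at an unadjusted p under 0.05, and 0 by DESeq2), and all 4 had fitted changes below 0. Their summed level was 83.4 to 94.4 CPM in WT and 72.5 to 105 CPM in GLUT1EC-/-, nearly all of it Cspg4 (86.0 ± 6.4 and 81.9 ± 16.7 CPM), which pericytes express too. Olig1 was at 1.84 ± 0.37 and 1.45 ± 0.62 CPM. The mural cell lists had no calls, 0 of 11 for pericytes (edgeR, 3 at an unadjusted p under 0.05) and 0 of 8 for smooth muscle (edgeR, 0 at an unadjusted p under 0.05), none by DESeq2 either, with medians of 0.18 and 0.04. Rgs5 of pericytes was at 301 ± 59 CPM in WT and 351 ± 46 CPM in GLUT1EC-/-, and the smooth muscle myosin Myh11 at 749 ± 80 and 622 ± 145 CPM. Summed pericyte markers were at 1015 to 1190 CPM in WT and 1139 to 1364 CPM in GLUT1EC-/-. Microglia markers summed to 507 to 602 CPM in WT and 779 to 1614 CPM in GLUT1EC-/-. Of 12, 7 were at an unadjusted p under 0.05 (edgeR) and 3 were called higher (C1qc, Trem2 and C1qb). With the number series as a term none of these 3 passed (edgeR adjusted p = 0.0761, 0.12 and 0.117), nor did they with any 1 WT library left out, and Trem2 and C1qb did not pass with library size alone (edgeR adjusted p = 0.066 and 0.0824) or without GLUT1EC-/- 1 (0.0739 and 0.0802). Of 9 astrocyte markers 1 was called higher and 0 lower (edgeR, 4 at an unadjusted p under 0.05). Of the 9, 5 had fitted changes below 0 and the median was -0.29. The called gene was Gfap (log2 fold change 2.97, edgeR adjusted p = 0.00669), which did not pass with any 1 WT library left out (edgeR adjusted p = 0.0669 to 0.103). Sox9, a transcription factor of astrocytes, fitted at -0.55 on the log2 scale (adjusted p = 0.08 by edgeR) and was called lower by DESeq2. Of 7 tested neuron markers, 0 passed (edgeR, 2 at an unadjusted p under 0.05, and 0 by DESeq2). The part of these cell types in the members' values was not tested.

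Profiles were compared among 10126 tested genes whose mean over all 6 libraries reached 5 CPM, after predicted genes and genes with clone or accession names were left out. Those whose levels followed Dcn most closely over the 6 libraries had the smallest root-mean-square difference between centred log2(CPM + 0.5) profiles. They were C1qc, a complement chain made by microglia (a difference of 0.14, where the profile of Dcn spans 2.46), Itih3 and Itih2, heavy chains that bind hyaluronan (0.16 and 0.20), Tmem100, a target of BMP signalling in endothelium (0.24), and Gpr84, a receptor of myeloid cells (0.24). That these genes are higher in GLUT1EC-/- follows from how they were chosen. Itih3, Itih2 and Gpr84 were at 2.11, 3.64 and 1.92 CPM in WT and reached the mean of 5 CPM through the GLUT1EC-/- libraries. For Pdgfra, whose profile spans 1.15, they were Gli1, a transcription factor of Hedgehog signalling (0.08), Pdk4 (0.09), Slc52a3 (0.10), Lpcat2 (0.10) and Sema3f (0.11), none of which was called. These differences describe 6 libraries and carry no test.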

How the data were processed

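RNA was sequenced from 6 samples, 3 WT and 3 GLUT1EC-/- by the genotype label. Per the labels' protocols, stranded mRNA libraries were read as single ends. Per the submitters' processing notes, the tools were STAR and featureCounts and the build GRCm38; versions, annotation and strand setting are not given in the sources used here. Each library has 1 file, in which the authors deposited unnormalized counts by gene symbol. Library totals were 31874662 to 39424384 counts, and every group has 3 libraries, which sets the precision. That replicates are separate animals is taken from their animal numbers, and no pairing is labelled. The p-values set the difference between groups against a spread between animals that edgeR estimates with the help of all tested genes.

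Counts were fitted with edgeR 4.0.16 (R 4.3.3) by a robust quasi-likelihood F test, after filterByExpr (count of at least 10, total of at least 15) and TMM scaling, with genotype as the only term on all 14838 genes that passed. Benjamini-Hochberg adjustment of the p-values covered all of them, with a threshold of 0.05. Dividing the log2 fold change by the square root of F gave the SE. CPM use the TMM factors. Ratios and profiles used log2(CPM + 0.5). The code was tested on simulated data. Gene positions and lengths are from GENCODE M21, also on GRCm38, and all 10 members were found among RefSeq symbols. Of 191 listed genes, 189 had a row in the files.

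The members and gene lists, the tests and the alternatives were chosen with earlier results of these data known. Named genes are the 10 members, in each other list up to 4 called genes, or failing any call the 2 with the highest mean CPM, the targeted gene, and the 5 nearest profiles of Dcn and Pdgfra. Kera, Epyc, Cenpp, Col1a1, Col3a1, Mfap4, Tcf21, Clec3b, Aldh1a2, Pdgfc, Tlr4, Chst2 and Sox9 are named beyond this rule. Alternatives were RLE, upper-quartile and no scaling between libraries, DESeq2 1.42.0, limma-voom (limma 3.58.1), non-robust dispersion, other filters, the number series or sex as a term, and each library left out. Of the genes this rule names, Notch3, Acta2, Flt1, Ly6c1, Stmn2 and Snap25, none of which passed, get no value in the text. Sex was read from Xist and Ddx3y. The result of 1 other marker list is not reported here.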

Additional observations from a re-analysis of the deposited data

How the results depend on the processing

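The count of 1 member called was the same under RLE, upper-quartile and no scaling, limma-voom, non-robust dispersion, both other filters on low counts, and with the number series or sex as a term. DESeq2 called 3 members (Dcn and Podn higher, Ogn lower), with 879 calls over all genes. With single libraries left out the count was 0 to 3: 0 without WT 1, WT 2 or WT 3, and 3 without GLUT1EC-/- 2. Over all genes, these fits called 0, 1, 5 and 862 genes, against 194 with all libraries, 14 with the number series and 113 with sex as a term. The pathway lists held 4, 6, 10, 20, 6, 5, 10 and 8 tested genes. Of all tested genes, edgeR called 0.863% higher and 0.445% lower, and DESeq2 3.38% and 2.54%. Among the pathway genes 5 were called, and the count was 13 with DESeq2, 0 with the number series as a term, 3 with sex as a term, and 0 to 12 with single libraries left out. The cause of these changes was not tested. The fitted change of Dcn was above 0 in all 16 alternatives and passed in 13. Bgn, Lum, Podn and Pdgfra were above 0 and Ogn below 0 in all 16, and Fmod, Aspn, Prelp and Omd changed sign in 1 each. The members' median stayed above 0, between 0.03 and 0.43. The levels of Omd and Podn, the members with the fewest counts, are limited by depth. No paired analysis was possible because the replicate numbers only name the samples in accession order and the labels pair no animals.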
